A study of Mus musculus with 46 samples.

Results

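The interferon response and MHC class I genes described here are 43 genes chosen by symbol: the transcription factors of the interferon response, its RNA sensors, its antiviral effectors, its inducible GTPases, and the genes that load and display peptides on MHC class I. All 43 were found among the 25494 rows of the liver RNA-seq table, and 42 of them were among the 13494 rows with enough counts to be tested. The exception, Tgtp1, an interferon-inducible GTPase, had 0 counts in every library. Its row overlapped that of its near-identical copy Tgtp2 on the same strand.

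The livers came from male C57BL/6 mice that arrived at 5 weeks of age, spent 1 week on chow and then ate either a lipid-rich diet (LD, 60% of energy as lipid, labelled high fat) or a carbohydrate-rich diet (CD, 70% of energy as carbohydrate, labelled low fat) for 20 weeks. No group carried a transgene or a drug. RNA-seq covered 5 mice per diet, ChIP-seq of the acetylated histone mark H3K27ac covered 3 samples per diet, and ChIP-seq of Hnf4α and C/EBPα and promoter capture Hi-C covered 2 per diet. The labels do not say whether a mouse used in RNA-seq was also used in ChIP-seq. The RNA libraries held 31.7 M to 39.0 M counted read pairs.

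Interferons are secreted proteins that act on receptors of the Jak-Stat type. Type I interferons lead to a complex with Stat2 and Irf9 that binds the interferon-stimulated response element (ISRE), and interferon gamma acts through the gamma-activated site (GAS). The induced genes include sensors of viral RNA, proteins that block viral translation and budding, GTPases that attack the vacuoles of intracellular microbes, and the immunoproteasome and peptide transporter that supply MHC class I. In liver, hepatocytes, Kupffer cells and endothelial cells all respond to interferon.

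The promoters of these genes were searched for the letters that such factors bind. In the window from 250 bases before to 50 bases after the start, on both strands, the ISRE core (GAAA, any 2 bases, GAAA) was found in 22 of the 42 tested genes (52.4%), against 451 of 13478 promoters of all tested rows (3.35%). The GAS core TTCNNNGAA was found in 11 of the 42 (26.2%), against 7.05% of all promoters. The kappa B core (GGGA, any 4 bases, CC) was found in 12 (28.6%), against 26.4% of all promoters. These matches are descriptions of the letters, and factor binding was not measured for Stat or Irf proteins. Only exact matches of a core were counted, so a gene without a match, such as H2-K1 or H2-D1 for the ISRE core, may hold a variant. Of the 10 genes called in RNA, 4 held an ISRE core (Gbp2, Gbp3, Irgm1 and B2m). The stretches below are shown because they hold the ISRE core of well-known induced genes and of those 4 genes. They were read from the mm9 genome on the strand of the gene, 5′ to 3′, with the ISRE cores in capitals, in either orientation.
Isg15, chr4:155574964-155575025, minus strand: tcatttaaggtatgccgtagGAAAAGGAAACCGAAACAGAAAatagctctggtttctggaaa
Ifit1, chr19:34715255-34715323, plus strand: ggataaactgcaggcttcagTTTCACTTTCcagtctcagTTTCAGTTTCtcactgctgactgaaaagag
Ifit3, chr19:34657843-34657926, plus strand: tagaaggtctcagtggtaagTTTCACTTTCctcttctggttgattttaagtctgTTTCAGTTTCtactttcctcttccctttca
Gbp2, chr3:142283548-142283597, plus strand: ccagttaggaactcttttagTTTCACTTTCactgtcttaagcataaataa
Gbp3, chr3:142222943-142222998, plus strand: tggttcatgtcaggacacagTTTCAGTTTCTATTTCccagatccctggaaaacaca
Irgm1, chr11:48684917-48684972, minus strand: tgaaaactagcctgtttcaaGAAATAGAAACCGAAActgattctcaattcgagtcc
B2m, chr2:121973264-121973313, plus strand: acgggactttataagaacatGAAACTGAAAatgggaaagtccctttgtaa

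The neighbouring GTPase genes Igtp and Irgm2 share a promoter stretch. In both, a GAS core lies just before the ISRE core. The cores begin 45 and 34 bases before the start of Igtp, and 75 and 64 bases before the start of Irgm2. The stretches agreed at 48 of 50 bases and differed by T13C and T43C, counted from the 5′ end with the base of Igtp first.
Igtp, chr11:58013004-58013053, plus strand: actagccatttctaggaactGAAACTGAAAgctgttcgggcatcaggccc
Irgm2, chr11:58028395-58028444, plus strand: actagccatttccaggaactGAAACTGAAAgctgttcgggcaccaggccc

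In RNA, 10 of the 42 tested genes were called higher on LD and 0 were called lower. Calls required a fold change above 1.2 and an adjusted p under 0.05 (quasi-likelihood test of edgeR, Benjamini-Hochberg over all 13494 rows). By the same rule, 24.9% of all tested rows were called, 13.8% higher and 11.1% lower on LD. The 10 genes were the GTPases Gbp6, Gbp2, Gbp3 and Irgm1, the antiviral genes Oasl2 and Ifit2, and the class I genes Psmb9, H2-D1, B2m and Tap1. The median log2 fold change of the 42 genes was 0.13, against -0.0019 for all tested rows, with 29 positive and 13 negative values (49.8% of all tested rows were positive). Without CD replicate 3 that median was 0.20, and by limma on log2(TPM + 0.1) it was 0.22. The median of all rows was not taken on the TPM scale, so the 0.22 has no such value beside it. An unadjusted p-value under 0.05 was reached by 15 genes higher and 1 lower, and DESeq2 and limma on log2 TPM also called 0 lower. The share of all tested rows at that unadjusted p was not counted. All 5 LD mice lay above all 5 CD mice for 5 genes (Gbp6, Gbp2, Irgm1, B2m and H2-D1) and below for 0, against 10.2% above and 8.35% below among all tested rows. In a test against a fold change of 1.2, Gbp6 and Gbp2 kept their calls and the other 8 did not.

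**Figure D1:**
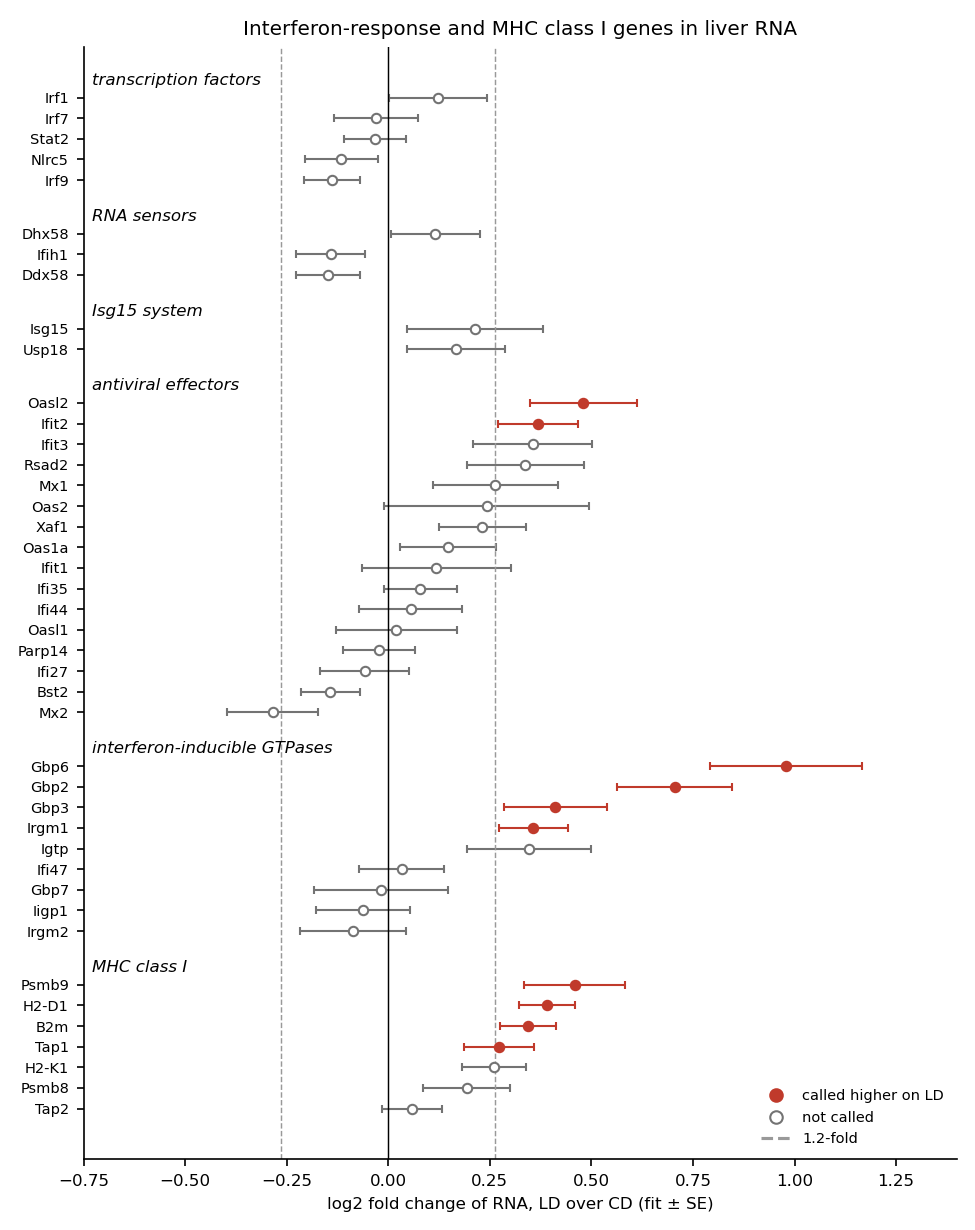
Fitted log2 fold change of RNA, LD over CD, for the 42 tested genes in blocks by role, with bars of ± 1 SE and n = 5 mice per diet. Filled points are the 10 called genes, all to the right of 0 and led by Gbp6 at 0.98, and dashed lines mark a fold change of 1.2.

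The guanylate-binding proteins, GTPases that coat the vacuoles of bacteria and parasites, held the largest changes. Gbp6 measured 25.9, 17.7, 27.3, 20.1 and 22.7 CPM (counts scaled to the depth of each library, with TMM) in LD replicates 1 to 5, and 10.005, 9.50, 15.2, 7.97 and 15.0 CPM in CD replicates 1 to 5. The lowest LD mouse lay above the highest CD mouse, and Gbp6 rose by 0.98 on the log2 scale (SE 0.187, adjusted p = 0.00281), a 1.97-fold change. Gbp2 measured 25.1, 25.8, 18.9, 18.2 and 16.6 CPM on LD and 13.3, 15.6, 12.0, 10.1 and 13.2 CPM on CD. Its diets did not overlap either, and it rose by 0.71 (SE 0.142, adjusted p = 0.00293), with LD replicates 1 and 2 well above the other LD mice. Gbp3 measured 21.0, 22.6, 17.5, 16.4 and 15.1 CPM on LD and 13.2, 13.03, 14.9, 11.4 and 17.0 CPM on CD. CD replicate 5 lay inside the LD range, and Gbp3 rose by 0.41 (SE 0.127, adjusted p = 0.0278). The call of Gbp3 was lost without LD replicate 1 or 2 or CD replicate 1, 2 or 4, at log2 fold changes of 0.33 to 0.39. Gbp7, next to Gbp3 on chromosome 3, was not called in any setting run.

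Of the immunity-related GTPases, which act on the same vacuoles, only Irgm1 was called. Irgm1, a regulator of the family, measured 84.4, 77.3, 78.3, 83.1 and 73.8 CPM on LD and 60.3, 57.8, 72.6, 51.6 and 67.5 CPM on CD. The diets did not overlap, and Irgm1 rose by 0.36 (SE 0.0858, adjusted p = 0.00762). Igtp measured 58.3, 42.4, 45.8, 41.3 and 30.2 CPM on LD and 30.9, 28.4, 41.5, 35.2 and 35.4 CPM on CD. LD replicate 5 lay among the CD mice, and the log2 fold change of 0.35 (SE 0.153, adjusted p = 0.114) was not called. It was called without that mouse, at 0.45 (adjusted p = 0.0192). Irgm2, whose promoter stretch matches that of Igtp at nearly every base, was not called in any setting run, nor were Ifi47 and Iigp1. The row of Ifi47 overlaps that of Olfr56 on the same strand, so its value is uncertain where reads could not be assigned. Iigp1 was the most abundant of the group by TPM (the authors' level per length of transcript), with a mean of 248 TPM on LD and 245 TPM on CD. Of the 9 tested GTPases, 4 were called higher, 5 were not called, and the median log2 fold change was 0.35.

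**Figure D2:**
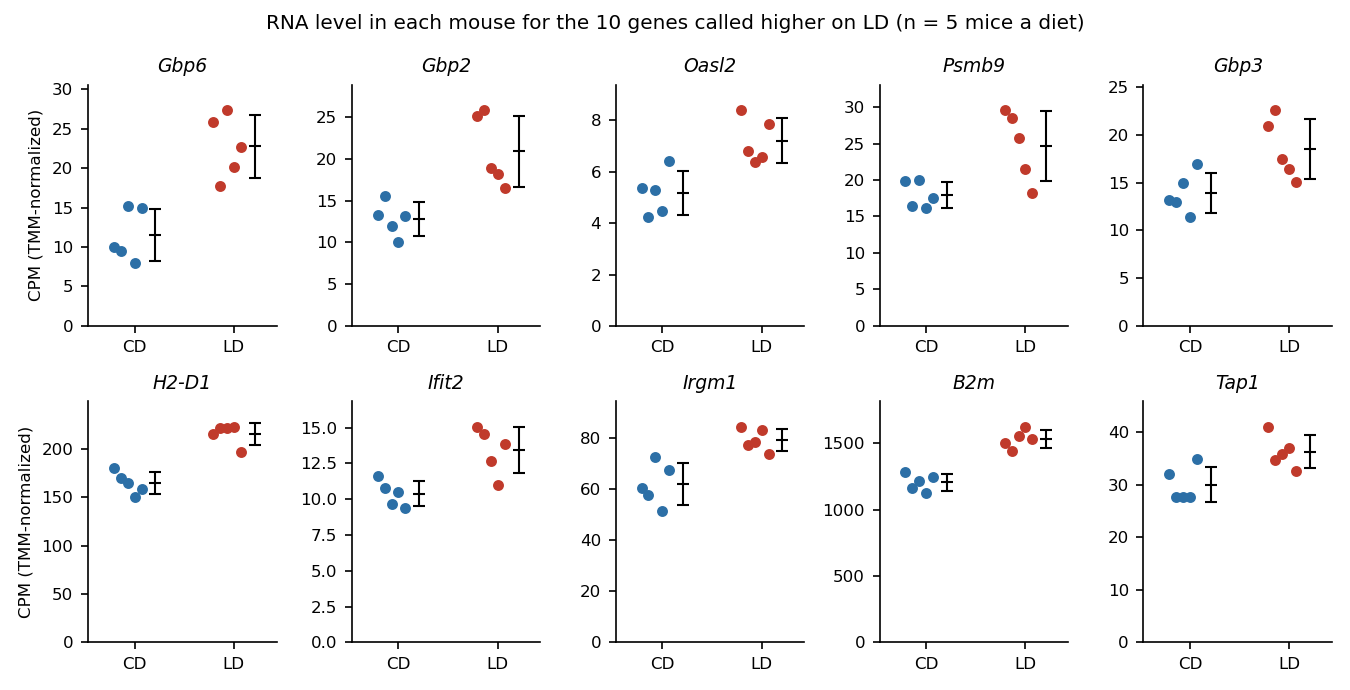
TMM-normalized CPM of each mouse (points) for the 10 called genes, with the mean ± SD of 5 mice beside each diet and each axis starting at 0. The diets do not overlap for Gbp6, Gbp2, H2-D1, Irgm1 and B2m, and they overlap in the other 5 panels.

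All 7 MHC class I genes had positive log2 fold changes, with a median of 0.27, and 4 were called higher. H2-D1, a classical class I heavy chain, measured 215, 221, 222, 223 and 197 CPM on LD and 179.9, 169.6, 164, 149.9 and 158 CPM on CD. The diets did not overlap, and H2-D1 rose by 0.39 (SE 0.0680, adjusted p = 0.00107). Its row overlaps those of H2-L and LOC547349 on the same strand, so its value is uncertain where reads could not be assigned. B2m, the light chain shared by all class I molecules, measured 1505, 1438, 1554, 1622 and 1531 CPM on LD and 1283, 1161, 1212, 1123 and 1245 CPM on CD. It rose by 0.34 (SE 0.0689, adjusted p = 0.00256) with no overlap between diets. Per length, B2m was the most abundant of the 43 genes, at a mean of 3381 TPM on LD and 2519 TPM on CD.

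H2-K1, the other classical heavy chain here, measured 1347, 1294, 1314, 1224 and 1099 CPM on LD and 1141, 1067, 1033, 932 and 1069.6 CPM on CD. It had an adjusted p of 0.0261, but its fold change of 1.198 was just under the threshold, so it was not called. It was called without LD replicate 4 or 5, without CD replicate 1, 2 or 5, and by limma on log2 TPM. Psmb9, a catalytic subunit of the immunoproteasome, measured 29.5, 28.5, 25.7, 21.5 and 18.2 CPM on LD and 19.8, 16.4, 19.9, 16.2 and 17.6 CPM on CD. LD replicate 5 lay within the CD range, and Psmb9 rose by 0.46 (SE 0.125, adjusted p = 0.0153). Tap1, a chain of the transporter that brings peptides into the endoplasmic reticulum, measured 41.0, 34.7, 35.9, 37.0 and 32.5 CPM on LD and 32.1, 27.6, 27.7, 27.6 and 34.9 CPM on CD. Tap1 rose by 0.27 (SE 0.0859, adjusted p = 0.0301), the smallest change called, and the call was lost without LD replicate 1, 3 or 4 or CD replicate 2, 3 or 4, at 0.22 to 0.27. Its partner Tap2 was not called in any setting run. Psmb8, the immunoproteasome subunit encoded next to Tap1, had 0.19 (SE 0.107, adjusted p = 0.199) and was called without LD replicate 5, at 0.28 (adjusted p = 0.0237).

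The classical class I promoters hold a kappa B core, shown here in capitals, because B2m carries it beside its ISRE core and H2-K1 and H2-D1 carry it in near-identical surroundings. Each capital run holds 2 overlapping matches of that core, 1 on each strand. The stretches of H2-K1 and H2-D1 agreed at 50 of 51 bases and differed by A38T, counted from the 5′ end with the base of H2-K1 first.
B2m, chr2:121973276-121973326, plus strand: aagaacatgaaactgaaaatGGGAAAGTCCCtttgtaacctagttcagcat
H2-K1, chr17:34137373-34137423, minus strand: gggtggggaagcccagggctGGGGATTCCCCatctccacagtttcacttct
H2-D1, chr17:35399848-35399898, plus strand: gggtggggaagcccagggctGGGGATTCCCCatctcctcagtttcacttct

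Among the 16 antiviral effectors, 2 were called higher and 14 were not called. Oasl2, of the oligoadenylate synthetase family of double-stranded RNA sensors, measured 8.39, 6.80, 6.39, 6.58 and 7.86 CPM on LD and 5.38, 4.25, 5.28, 4.48 and 6.43 CPM on CD. Only CD replicate 5 reached the lowest LD mouse, and Oasl2 rose by 0.48 (SE 0.131, adjusted p = 0.0148). Ifit2, which binds viral RNA and blocks its translation, measured 15.0, 14.5, 12.6, 11.01 and 13.8 CPM on LD and 11.6, 10.8, 9.66, 10.5 and 9.40 CPM on CD. LD replicate 4 lay below CD replicate 1, and Ifit2 rose by 0.37 (SE 0.0987, adjusted p = 0.0133). Its neighbour Ifit3 had a similar log2 fold change of 0.36 with a wider error (SE 0.146, adjusted p = 0.0888), and was called without CD replicate 3 and by limma on log2 TPM. Rsad2, the antiviral enzyme viperin, had 0.34 (SE 0.143, adjusted p = 0.0969) and was called without LD replicate 2, at 0.42 (adjusted p = 0.0317). Mx2, a dynamin-like GTPase, had the most negative value of the 42, -0.28 (SE 0.112, adjusted p = 0.0738), and without LD replicate 2 it was called lower, at -0.35 (adjusted p = 0.0385). The other effectors, among them Ifit1, Oas1a, Oas2, Mx1, Bst2 and Ifi27, lay between -0.14 and 0.26 and were not called in any setting run.

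Of the transcription factors and RNA sensors among the genes chosen by symbol, together with Isg15 and Usp18, 0 were called. Other regulators and sensors, from the further pathway list below, were called higher (Irf8, Tlr7, Zbp1 and Tmem173) or lower (Irf2 and Irf3). Stat2 and Irf7, a factor of the ISRE-binding complex and the amplifier of type I interferon, had log2 fold changes of -0.03 (SE 0.0761, adjusted p = 0.784) and -0.03 (SE 0.104, adjusted p = 0.860). Both signs turned positive, at 0.04, by limma on log2 TPM. Stat2 measured 33.3 to 39.8 CPM on LD and 33.1 to 40.4 CPM on CD, so that the ranges were nearly the same. The 5 transcription factors, which include Irf1, Irf9 and Nlrc5, the activator of class I genes, lay between -0.14 and 0.12, and 0 of them reached an unadjusted p-value under 0.05. The RNA sensors Ddx58, Ifih1 and Dhx58 lay between -0.15 and 0.12, and 0 of these did. Isg15, the ubiquitin-like protein that marks an interferon response, measured 5.71, 4.25, 5.24, 5.19 and 5.93 CPM on LD and 3.44, 3.55, 6.40, 4.57 and 4.72 CPM on CD. CD replicate 3 had the highest level of all 10 mice, and the log2 fold change of 0.21 (SE 0.167, adjusted p = 0.368) was not called. Usp18, which removes Isg15 from proteins, was not called either.

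The genes also varied from mouse to mouse within a diet. LD replicate 1 was the highest LD mouse for 24 of the 42 genes, and LD replicate 5 was the lowest for 17. On CD, replicate 3 was the highest for 21 genes and replicate 4 the lowest for 22. Taken over the 42 genes, the median log2 difference from the CD mean was 0.05 to 0.26 in the 5 LD mice and -0.14 to 0.11 in the 5 CD mice, so that LD replicates 3 and 5 lay below CD replicates 3 and 5.

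**Figure D3:**
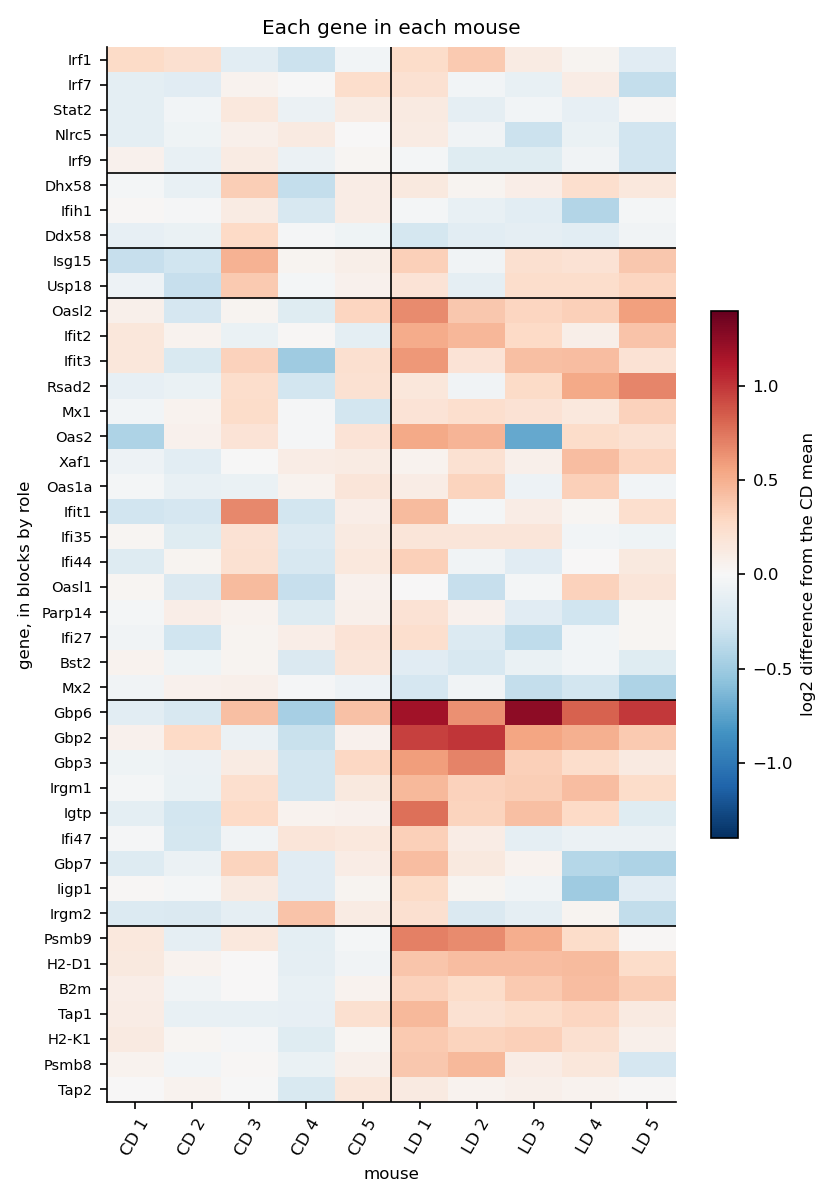
Log2 difference of CPM from the CD mean for each of the 42 tested genes (rows, in blocks by role as in the plot of fold changes) in each mouse (columns). Red is higher; Gbp6, Gbp2, Irgm1, H2-D1 and B2m are red in all 5 LD mice, while Gbp7, Irgm2, Igtp, Iigp1 and Ifi47 are blue in LD replicate 5 and CD replicate 3 is red for Isg15, Ifit1 and Oasl1.

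Other genes of the pathway were taken from a list of 64, of which 54 were tested, 16 were called higher and 2 lower. All 7 MHC class II genes were called higher with no overlap between diets, at log2 fold changes of 0.56 for Cd74, the class II chaperone, to 0.98 for H2-DMb1, and 0.83 for Ciita, the class II activator. Irf8, a factor of myeloid cells, rose by 0.66 (SE 0.136, adjusted p = 0.00334). The receptor chains Ifngr2 (0.54) and Il10rb (0.39), the nucleic acid sensors Tlr7 (0.97) and Zbp1 (0.64), the adaptor Tmem173 (0.66, also known as STING), the phosphatase Ptpn6 (0.51) and the class I gene H2-Q10 (0.48) were also called higher. Irf2, a repressor of ISRE genes, fell by 0.57 (SE 0.138, adjusted p = 0.00862) and Irf3 fell by 0.32 (SE 0.0624, adjusted p = 0.00210). Of the other 13 class I presentation genes tested, H2-Q10 was the only gene called. None of the 8 interferon genes listed had enough counts to be tested. Ifnb1, Ifna2, Ifna4, Ifnl2, Ifnl3 and Ifne had 0 counts in all 10 libraries, which allows up to 3 counts, or 0.0946 CPM in the shallowest library, and Ifng had 16 counts over the 5 LD mice and 9 over the 5 CD mice.

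Bulk liver RNA cannot tell a change in the number of cells of a type from a change in RNA per cell. Levels of cell type markers are therefore given beside the genes described here. The sums of the monocyte and dendritic cell, plasmacytoid dendritic cell and neutrophil markers did not overlap between diets, and those of the Kupffer cell, T and NK cell and B cell markers did. The 7 markers of monocytes and conventional dendritic cells summed to 17.6 to 34.0 CPM on LD and 7.55 to 9.84 CPM on CD, with 4 called higher (Ly6c2, Ccr2, Itgax and Flt3). The 4 markers of plasmacytoid dendritic cells, of which Cox6a2 and Klk1 were too low to test, summed to 1.46 to 2.46 CPM on LD and 0.887 to 1.302 CPM on CD, with Siglech and Ccr9 called higher. The 8 Kupffer cell and macrophage markers summed to 356 to 1084 CPM on LD and 351 to 683 CPM on CD, with Cd68 called higher. The 10 T and NK cell markers summed to 4.13 to 10.7 CPM and 4.92 to 6.21 CPM, with Cd8a called higher and Cd4 called lower. The 4 B cell markers summed to 4.33 to 8.68 CPM and 3.86 to 5.12 CPM, with Cd79b called higher. The 4 neutrophil markers summed to 67.2 CPM in LD replicate 2, 3.97 to 5.46 CPM in the other LD mice and 1.91 to 3.21 CPM on CD, with S100a8 called higher. Without LD replicate 2, 10 of the 42 genes were still called higher, with Rsad2 in place of Gbp3. The 6 endothelial, 6 stellate cell and 4 cholangiocyte markers overlapped between diets in their sums, with Lyve1, Dcn and Col1a1 called higher, and of the 5 erythroid markers 4 were at 0 in every library. Of the 6 hepatocyte markers, Tat, Cps1 and Serpina1c were called lower, and Alb was not called. The part of these markers in the changes of the interferon and class I genes was not tested.

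H3K27ac, a mark of active promoters and enhancers, was present at nearly all of these promoters on both diets. A peak lay within 1 kb of the start in all 6 samples for 40 of the 42 genes (95.2%), against 85.8% of all tested rows. The exceptions were Oas1a, with a peak in 2 LD and 2 CD samples, and Nlrc5, with a peak in 3 LD and 1 CD samples. The deposited lists hold intervals without heights, so the share of a window covered by peaks, over the gene body and 20 kb on either side, was compared.

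For 13 of the 42 genes, the covered share was higher in all 3 LD samples than in all 3 CD samples, and for 0 it was lower. Among all tested rows this held for 21.7% and 5.83%, and the LD samples carried more peak sequence in total (149.8 to 160.4 Mb against 139.7 to 145 Mb). With 3 against 3 samples, an exact permutation test cannot give a p below 0.1. The 13 genes were Psmb9, Tap1, Psmb8, Tap2, Ifit3, Ifit2, Oasl2, Mx1, Ifi27, Gbp3, Rsad2, Irf1 and H2-D1. The windows of Psmb8, Psmb9, Tap1 and Tap2 overlap, as do those of Ifit2 and Ifit3, so these are not separate loci. When coverage was divided by the total of each sample, 12.9% of all tested rows were higher and 16.4% lower in all LD samples. On that scale 8 of the 13 remained higher (Psmb9, Tap1, Psmb8, Tap2, Ifit3, Oasl2, Mx1 and Gbp3), Irf1 turned to lower, and Ifi35 was also lower.

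**Figure D4:**
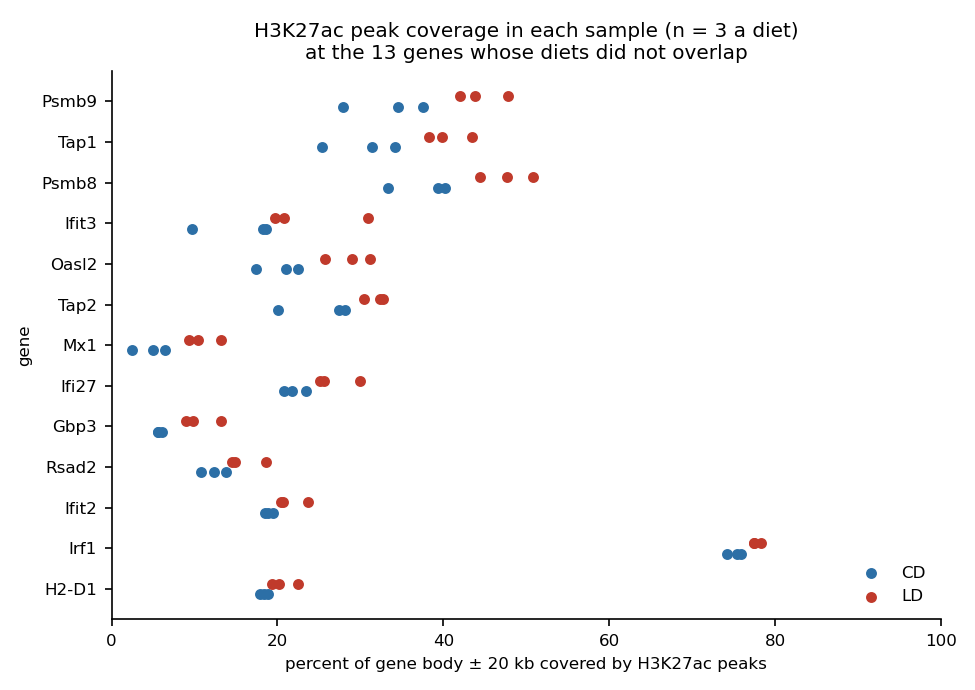
Percent of the gene body ± 20 kb covered by H3K27ac peaks in each LD (red) and CD (blue) sample, n = 3 per diet, for the 13 genes whose diets did not overlap. Psmb9, Tap1 and Psmb8, whose windows overlap, differ most between the means of the diets.

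The largest difference between the means of the diets lay at the class I processing genes on chromosome 17. The window of Psmb9 was covered by 47.8%, 43.8% and 42.01% in LD replicates 1 to 3 and by 34.5%, 37.6% and 27.9% in CD replicates 1 to 3. The difference was 11.2 percentage points (SE 2.95), with an adjusted p of 0.0594 by limma over 13254 genes. Tap1 differed by 10.2 points (SE 2.76, adjusted p = 0.0644) and Psmb8 by 10.02 points (SE 2.74, adjusted p = 0.0665). A single locus at chr17:34316001-34329800 holds the divergent start sites of Psmb9 and Tap1. Peaks covered 95.7%, 82.6% and 71.0% of it on LD and 60.9%, 60.9% and 56.5% on CD.

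By limma, 2 of the 42 genes were called higher on LD and 0 lower, against 5.7% and 0.913% of the 13254 genes. An unadjusted p-value under 0.05 was reached by 10 genes higher and 0 lower. Psmb8, Psmb9, Tap1 and Tap2, whose windows overlap, were among the 10. The share of all 13254 genes at that unadjusted p was not counted, so these counts are not set apart from the background. Mx1, an antiviral GTPase that is defective in many laboratory mouse strains, was covered by 10.4%, 13.2% and 9.31% on LD and 6.44%, 5.01% and 2.51% on CD, a difference of 6.32 points (SE 1.36, adjusted p = 0.0348). Its RNA was not called in any setting run. Gbp3 was covered by 9.03%, 13.2% and 9.78% on LD and 5.64%, 5.64% and 6.02% on CD, a difference of 4.89 points (SE 1.17, adjusted p = 0.0459). Without LD replicate 1, Gbp3 alone was called, and without any other single sample 0 of the 42 genes were. Near these genes 134 loci held a peak in 2 or more of the samples, and of these 96 were present in all 6 samples (71.6%, against 59.5% genome-wide). A further 2 had a peak in all LD and no CD samples, at chr16:97696801-97698800, 12.3 kb from the start of Mx1, and at chr12:104694801-104695800, 22.4 kb from the start of Ifi27, and 0 had the reverse. That is 1.49% of the loci near these genes with a peak on LD only, against 3.13% of loci genome-wide, where 0.757% had a peak on CD only. The genome-wide shares are over loci at any distance from a gene.

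Of the 10 genes called in RNA, 6 were among the 13 with separated coverage, as were 7 of the 32 not called and 21.7% of all tested rows. Whether these shares differ was not tested. Gbp6 and Gbp2, with the largest changes in RNA, differed in coverage by about 1 point (Gbp6 8.99% on LD against 7.83% on CD, Gbp2 5.81% against 4.77%) with overlapping samples. B2m was covered by 43.2% to 44.1% on LD and 41.9% to 46.7% on CD.

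**Figure D5:**
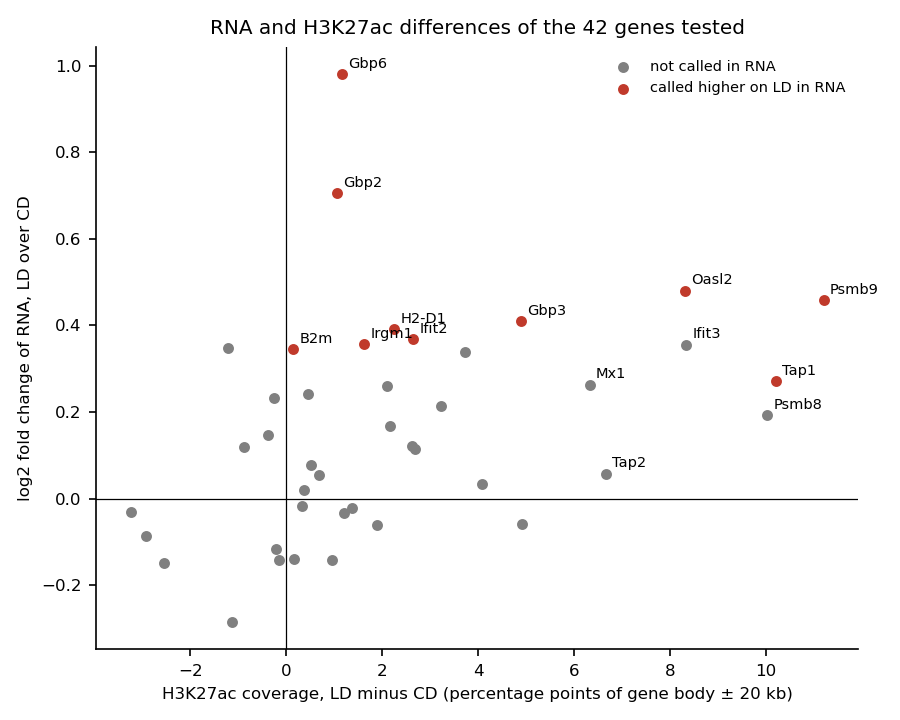
Log2 fold change of RNA, LD over CD, against the difference in H3K27ac coverage of the gene body ± 20 kb, LD minus CD in percentage points, for the 42 tested genes. Red points are the 10 genes called in RNA; Gbp6 and Gbp2 lie high with coverage differences near 1, and Psmb9, Tap1 and Psmb8 lie far right.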

How the data were processed

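The authors mapped RNA read pairs to mm9 with STAR 2.5, counted them by strand on RefSeq genes with featureCounts 1.5.0-p1 and deposited unnormalized counts, together with TPM values. The file of TPM also holds the authors' own comparison, which was not used. H3K27ac peaks come from the authors' SICER 1.1 run on each sample (window and gap 200 bases, false discovery rate 0.001), and the deposited lists give intervals only. Peaks of Hnf4α and C/EBPα come from HOMER, again by sample, and their deposited signal is HOMER's normalized tag count. For promoter capture Hi-C, the deposited CHiCAGO score comes from the pooled replicates of a diet.

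Groups came from the sample labels. Libraries held 31.7 M to 39.0 M counted pairs. No 2 count columns were identical. Counts were tested in R 4.3.3 with edgeR 4.0.16 (TMM, filterByExpr, robust quasi-likelihood fit). Coverage of windows by peaks was tested with limma 3.58.1 for genes with a peak in at least 2 samples. Alternatives were DESeq2 1.42.0, its size factors in edgeR, no filter or a minimum of 10 counts, limma on log2(TPM + 1) and log2(TPM + 0.1), a replicate block, a test against a fold change of 1.2, windows of 5 and 50 kb or around the start only, scaled coverage, and the omission of each sample. The main edgeR fit and the limma fit of coverage were tested on simulated data, and the alternatives were not. Promoters were read from NCBIM37, which is mm9, at the start sites of the count table. Motifs were counted in the 13478 promoters that this genome holds. The genes, the further lists and the marker lists were chosen with earlier results of these data known. Values are given for every gene called, for defining genes of a role and for those whose call changed without a library, and the rest are given by ranges; 1 gene of the further pathway list is not reported here. A p-value here measures the spread between the mice or samples of a diet.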

Additional observations from a re-analysis of the deposited data

Results flagged for a closer look

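Of 84 sets of values (42 genes, each diet's 5 mice), 2 held a mouse that stood apart by Dixon's criterion, which about 1 set in 20 passes by chance. Ddx58, the RNA sensor RIG-I, measured 64.7 CPM in CD replicate 3, with the next CD mouse at 52.3 CPM. That mouse was also the highest CD mouse for 21 of the 42 genes. H2-D1 measured 197 CPM in LD replicate 5, with the next LD mouse at 215 CPM. Without that mouse H2-D1 remained called higher, and 13 of the 42 genes were called in place of 10.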

How the results depend on the processing

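With each mouse left out in turn, 8 to 13 of the 42 genes were called higher on LD, 0 to 1 lower, and the median log2 fold change was 0.10 to 0.20. Over all rows 2833 to 3479 were called against 3357, and of the further pathway genes 15 to 17 were called higher and 2 to 3 lower. Gbp6, Gbp2, H2-D1, B2m, Irgm1, Psmb9, Oasl2 and Ifit2 kept their calls without any single mouse. DESeq2, its size factors, both filters and the replicate block each gave 10 genes called higher, and limma on log2 TPM gave 12. Against a fold change of 1.2, 1378 rows, 2 of the 42 genes, and 10 higher and 0 lower pathway genes were called. By limma on log2(TPM + 0.1) the median was 0.22, and with either pseudocount 1 pathway gene was called lower. The log2 fold change of Irf7 turned to 0.042 and 0.043 in the TPM fits and to 0.0397 without LD replicate 5 and 0.0355 without CD replicate 5 (range with a mouse left out -0.096 to 0.0397), and that of Stat2 turned to 0.0437 and 0.0463 in the TPM fits and to 0.0051 without CD replicate 3 (range -0.074 to 0.0051). Stat2 had means of 15.5 TPM on LD and 15.0 TPM on CD, but 35.8 and 36.6 CPM. The hepatocyte marker Alb also changed order, with 61555 and 61189 TPM against 67059 and 70265 CPM. The cause was not tested.

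Replicate numbers did not pair the RNA samples (correlations of same-numbered mice -0.08 to 0.19, best with its own number for replicate 2 only). The replicate block called 3173 rows and 10 of the 42 genes. For H3K27ac coverage (correlations -0.19 to 0.14) the block called 1 of the 42 genes, Mx1, in place of 2.

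Counts from H3K27ac coverage moved with the window and the scale. Separated genes numbered 8 higher with a 5 kb window, 8 higher and 2 lower after scaling, 1 lower around the start only, and 15 to 17 higher and 0 to 3 lower with a sample left out (3 without LD replicate 2, 2 without CD replicate 2, 1 without CD replicate 1 or 3), where fewer samples separate more easily. By limma, 0 were called higher with 5 kb, 10 with 50 kb (Gbp2, Gbp7, Ifi27, Mx1, Oas2, Psmb8, Psmb9, Rsad2, Tap1 and Tap2, against 11.6% of genes), 1 around the start only, 1 after scaling and 0 to 1 with a sample left out.

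Peak intervals carry no height, so a change in H3K27ac signal inside a peak present in all samples could not be measured, and 3 samples per diet limit the test.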

Other observations

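Hnf4α and C/EBPα, factors of hepatocyte gene expression, were compared at the same promoters with 2 samples per diet and no test. An Hnf4α peak lay within 1 kb of the start in all 4 samples for 10 of the 42 genes (23.8%), against 23.1% of all tested rows. Among these 10 were the class I heavy chains H2-K1 and H2-D1 and the GTPases Irgm2, Igtp, Gbp6 and Gbp7. The H2-K1 peak had normalized tag counts of 97.0 and 81.0 on LD and 54.8 and 101.5 on CD. For all 10 genes the heights of the diets overlapped, while among the 3121 rows with such a peak 10.3% were higher and 5.61% lower in both LD samples. A C/EBPα peak lay there in all 4 samples for 5 genes (11.9%), against 16.7% of rows. For none of the 5 did the heights overlap. The peak at Gbp2 was the higher on LD, with normalized tag counts of 86.5 and 115.5 on LD and 48.0 and 21.0 on CD, and those at Irf1, Mx2, Bst2 and Gbp7 were the lower on LD, as at Bst2 with 16.0 and 14.0 on LD and 47.0 and 26.0 on CD. Among the 2258 rows with such a peak, 63.2% were lower and 2.57% higher in both LD samples. By these heights the direction at Gbp2 was the less common and that of the other 4 the common direction. The heights were used as deposited, at promoters only. In its own test of differential binding over all C/EBPα sites, the paper reported more sites enriched on LD than on CD. The difference between the 2 balances was not tested. Gbp2 was singled out after its values were seen.

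Promoter capture Hi-C listed 369 distinct interactions of the 42 promoters on LD and 392 on CD, of which 292 were on both lists. Each list pools 2 replicates, so no error can be given. An interaction that belongs to several of these genes, as for Psmb8 and Tap2, enters the count of each. The median per gene was 4 on LD and 3 on CD, against 3 on both for all tested genes. Irgm1 had the most, 55 on LD and 70 on CD, followed by Ifit2 with 45 and 46. Psmb9, Tap1 and H2-K1 were among the genes with 0 on both lists. Promoters of these genes also met each other: Ifi47 with Irgm1 at CHiCAGO scores of 27.2 on LD and 27.39 on CD, Gbp2 with Gbp7 at 23.85 and 26.76, and Gbp2 with Gbp3 at 17.45 and 24.97. Ifit1 with Ifit2 was listed at 6.33 on LD only, close to the lowest score listed of 5.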
